A study of Mus musculus with 16 samples.

Results

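The genes that flank Ptn on mouse chromosome 6 were followed on 16 arrays, to see what was measured around a gene to which designed DNA-binding proteins had been aimed. The 34 genes are a list, by name, of genes flanking Ptn, 18 on the side of Mtpn and 16 on the side of Dgki, and Ptn itself is left out. The list does not hold every protein-coding gene of the stretch it covers. The array design held probes for 33 of the 34, and 20 of them had enough signal to be measured, against 11180 genes measured in all.

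Mouse E14 embryonic stem (ES) cells, an established line grown in serum with LIF, a cytokine that holds ES cells undifferentiated, were transfected with plasmid by lipofection. The 4 groups received EGFP alone, Ptn(TALE)Delta, Ptn(TALE)VP64 or Ptn(TALE)DEL, called EGFP, Ptn_Delta, Ptn_VP64 and Ptn_DEL here. Every group was sorted for eGFP after 24 h and harvested at 48 h, and each had 4 single-colour arrays. These were 2 biological and 2 technical replicates in an order that is not stated, and precision is limited by their number. A TALE is a designed protein that binds a chosen DNA sequence. VP64 is a strong synthetic activation domain, and DEL is an acidic peptide reported to decondense chromatin. The labels do not say what Delta carries. EGFP cells had no TALE at all. Expression was transient, and the cells of a group were measured as a bulk, so fewer cells with a transcript and less transcript per cell cannot be told apart.

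A gene can respond to events at its neighbours because genes of a chromosome domain share chromatin state, enhancers and contacts. A neighbourhood can also hold genes that are silent in a given cell type and stay so. The surroundings of Ptn mix such genes. They hold housekeeping genes (Nup205, Cnot4, Luc7l2), a cluster of aldo-keto reductases (Akr1b3, Akr1b8, Akr1b7), and genes best known from brain, heart, kidney or testis (Chrm2, Dgki, Atp6v0a4, Lrguk).

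Promoter sequences are shown for 4 members named in the results. Chrm2 is the first protein-coding gene on the Mtpn side, and its transcript was not well above background on any array. Mtpn and Creb3l2 are the nearest measured genes on each side. Stra8 is the member with the largest negative difference. The sequences were used in no comparison of the groups. Each is the 250 bases before the RefSeq transcription start, 5′ to 3′ on the gene's own strand (GRCm38.p6; Chrm2 at chr6:36387834-36388083, plus strand; Mtpn at chr6:35539889-35540138, minus strand; Creb3l2 at chr6:37442149-37442398, minus strand; Stra8 at chr6:34920698-34920947, plus strand), with CG dinucleotides in capitals.
Chrm2: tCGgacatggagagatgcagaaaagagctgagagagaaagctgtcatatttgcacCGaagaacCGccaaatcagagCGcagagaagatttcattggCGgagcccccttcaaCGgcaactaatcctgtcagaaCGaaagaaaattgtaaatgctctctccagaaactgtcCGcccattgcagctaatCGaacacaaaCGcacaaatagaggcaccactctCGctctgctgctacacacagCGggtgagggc
Mtpn: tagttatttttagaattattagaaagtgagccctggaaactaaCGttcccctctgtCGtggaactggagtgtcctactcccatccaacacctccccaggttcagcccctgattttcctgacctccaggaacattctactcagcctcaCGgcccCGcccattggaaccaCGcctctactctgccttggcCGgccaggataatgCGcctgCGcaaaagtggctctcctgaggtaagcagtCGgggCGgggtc
Creb3l2: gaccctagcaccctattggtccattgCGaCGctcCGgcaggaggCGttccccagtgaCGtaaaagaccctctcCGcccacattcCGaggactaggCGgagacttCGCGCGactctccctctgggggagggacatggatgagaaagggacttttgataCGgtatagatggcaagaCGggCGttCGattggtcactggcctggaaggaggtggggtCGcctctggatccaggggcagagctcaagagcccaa
Stra8: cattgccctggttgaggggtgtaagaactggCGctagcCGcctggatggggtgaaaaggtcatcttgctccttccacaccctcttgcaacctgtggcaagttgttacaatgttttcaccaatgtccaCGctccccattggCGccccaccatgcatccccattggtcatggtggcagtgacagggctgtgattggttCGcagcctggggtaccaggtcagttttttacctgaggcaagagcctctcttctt
These stretches hold 12, 10, 16 and 5 CG dinucleotides, in the order shown. In the RefSeq window of 300 bases that also takes in the 50 bases after the start, Chrm2 has 16, Mtpn 12, Creb3l2 17 and Stra8 10. A total of 43.9% of all 27025 genes with such a window have 10 or more. A window was given for 33 of the 34 members. The 12 members with a window whose transcript was well above background on 12 or more arrays had a median of 17 CG, and 10 of them had 10 or more. The 8 members above background on 4 to 11 arrays had a median of 15.5, and 6 of them had 10 or more. The 12 members with a probe that were above background on fewer than 4 arrays had a median of 8.5, and 6 of them had 10 or more. The ranges overlapped widely: Clec2l, with 29 CG, was above background on 1 array, and Luc7l2, with 2 CG, was above background on all 16.

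The array level used below is the log2 of the spot signal relative to the 75th percentile of the array, after correction for dim and bright patches of the array surface. The 75th percentile itself ran from 209.3 to 1253 intensity units. Patches took between 0.641 and 35.6% of the spots of an array, and spots far off were left out. Spots marked as outliers, 1.87 to 16.5% of those of an array, were left out too. For these reasons a measured member kept a value on 10 to 15 of the 16 arrays, and no member had all 16. The ES cell markers (12 of 12, among them Pou5f1, Nanog and Sox2) were well above background on 12 or more arrays. Ptn, the target, stood in Ptn_VP64 at 2.98, 2.60 and 3.31 (replicates 2, 3 and 4), above EGFP at -0.31 and -2.17 (replicates 2 and 4). Ptn differed from EGFP by 4.11 ± 1.23 with Ptn_VP64, -0.10 ± 1.23 with Ptn_DEL and 0.04 ± 0.45 with Ptn_Delta (limma, adjusted p = 0.459, 1.00 and 1). Differences are log2 values with their standard error, taken from the pairing of arrays that gave the largest p, and p is adjusted over all 11180 genes.

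Of the 33 members with a probe, 60.6% were measured, beside 53.3% of all 20972 named genes on the arrays. The measured members were 12 of 18 on the Mtpn side and 8 of 16 on the Dgki side. Neither gene next to Ptn was among them. Chrm2, the muscarinic receptor M2, was not well above background on any array of any group. Dgki, a diacylglycerol kinase first on the other side, was above background on 2 arrays, both of EGFP, and Feature Extraction marked both of these spots as outliers. Fam180a and Zc3hav1l were also above background on no array. Akr1b7, Agbl3, Tmem140, Akr1d1, Svopl, Klrg2 and Clec2l were each above on 1 array, and Tmem213 on 3. Zc3hav1, an antiviral RNA-binding protein, was above on 8 arrays, but too few of its spots were left in Ptn_Delta to test it. The 12 dim members were well above background in 1 of the 48 probe and array values of Ptn_VP64, against 3 of EGFP, 2 of Ptn_DEL and 6 of Ptn_Delta. These counts include spots marked as outliers, such as those of Dgki, Akr1d1 and Svopl. Of all spots, 34.9 to 41.4% per array were well above background in Ptn_VP64 and 27.2 to 41.2% in EGFP. The shares were 36.1 to 40.7% in Ptn_DEL and 34.4 to 43.8% in Ptn_Delta. A group difference in detection was not tested.

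**Figure D1:**
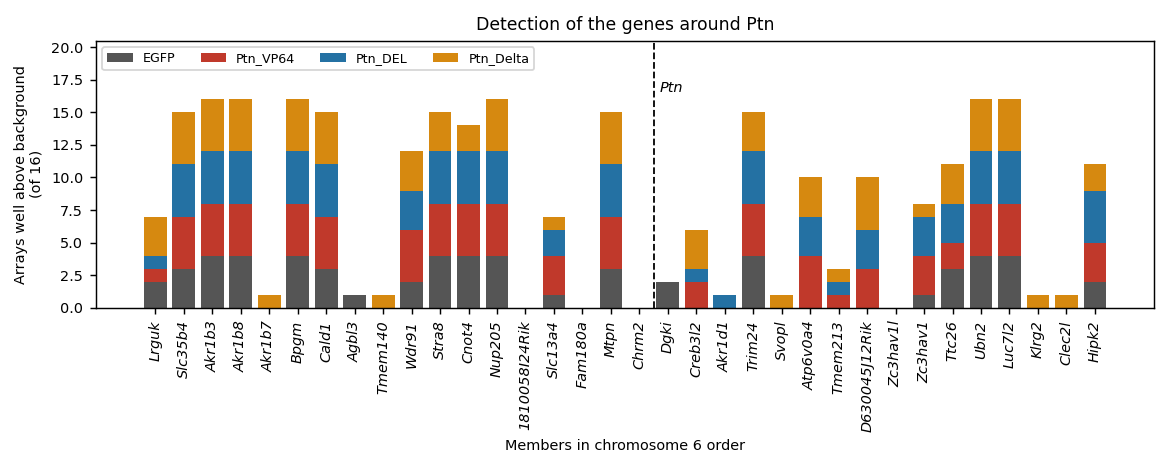
Number of the 16 arrays (vertical axis) on which each member's probe was well above background, stacked by construct, with the members in chromosome order and a dashed line at Ptn. Chrm2, next to Ptn on the Mtpn side, has no bar, Dgki has 2 EGFP arrays, and 6 members were above background on all 16; 1810058I24Rik had no probe.

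In the comparison of Ptn_VP64 with EGFP, 0 of 20 members passed at an adjusted p under 0.05, where 0.0179% of all genes passed (2 genes). The lowest adjusted p of a member was 0.419. At an unadjusted p under 0.05, 4 of 20 members passed (Akr1b8, Cald1, Creb3l2, Stra8) and 8.18% of all genes did (914 genes). In a fit of all arrays one by one with a slide term, which counts technical repeats as replicates and gives p-values that are too small, 1 of 20 members passed adjustment (Cald1), with 3.26% of all genes. Members of this neighbourhood are therefore described below by their levels. Ptn_DEL against EGFP gave 0 of 20 members at the adjusted threshold (0% of all genes), 0 at the unadjusted one (2.5%) and 0 in the unaveraged fit (0.0716%). Ptn_Delta against EGFP gave 0 of 20 (0%), 0 (2.8%) and 0 (0.0268%). These 3 comparisons share the EGFP arrays.

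With the processing used here, the middle of the neighbourhood lay near that of all genes. As differences of group means, the median over the 20 members was 0.07 for Ptn_VP64 minus EGFP (all genes 0.02), 0.12 for Ptn_DEL minus EGFP (all genes 0.05) and 0.18 for Ptn_Delta minus EGFP (all genes 0.04). These medians depended on the processing, at 0.55, 0.56 and 0.44 in the deposited log2 values, where the median of all genes was not taken. In each of the 3 comparisons 12 members (60%) were higher than in EGFP and 8 lower. Of all genes, 51.8% were higher with Ptn_VP64, 56.3% with Ptn_DEL and 54.7% with Ptn_Delta. Differences of more than 1 log2 unit were found in 4 of 20 members with Ptn_VP64, where 12.7% of all genes had one. They were found in 1 of 20 with Ptn_DEL (6.82% of all genes) and 1 of 20 with Ptn_Delta (7.14%). Of the 4 with Ptn_VP64, Creb3l2 is the fourth gene of the RefSeq table from Ptn, and Stra8, Cald1 and Akr1b8 are 20, 29 and 38 genes away on the Mtpn side. By order, the 1 measured member within 5 genes of Ptn was Creb3l2. The 3 measured members 6 to 15 genes away (Mtpn, Slc13a4, Trim24) differed from EGFP by -0.42 to -0.10 with Ptn_VP64. These directions depended on the processing: without patch correction Mtpn was at 1.19, Slc13a4 at 0.41 and Trim24 at -0.58, and in the log2 values the authors deposited Mtpn was at 1.02 and Slc13a4 at 0.18. The 16 measured members over 15 genes away had a median of 0.10 and a range of -2.08 to 2.63 with Ptn_VP64. With Ptn_DEL and Ptn_Delta, the 3 members 6 to 15 genes away differed from EGFP by -0.34 to -0.03 and by -0.49 to -0.11. The signs of Mtpn and Trim24 turned without patch correction in both, and that of Slc13a4 did not. The 16 farther members had medians of 0.26 with Ptn_DEL and 0.30 with Ptn_Delta.

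**Figure D2:**
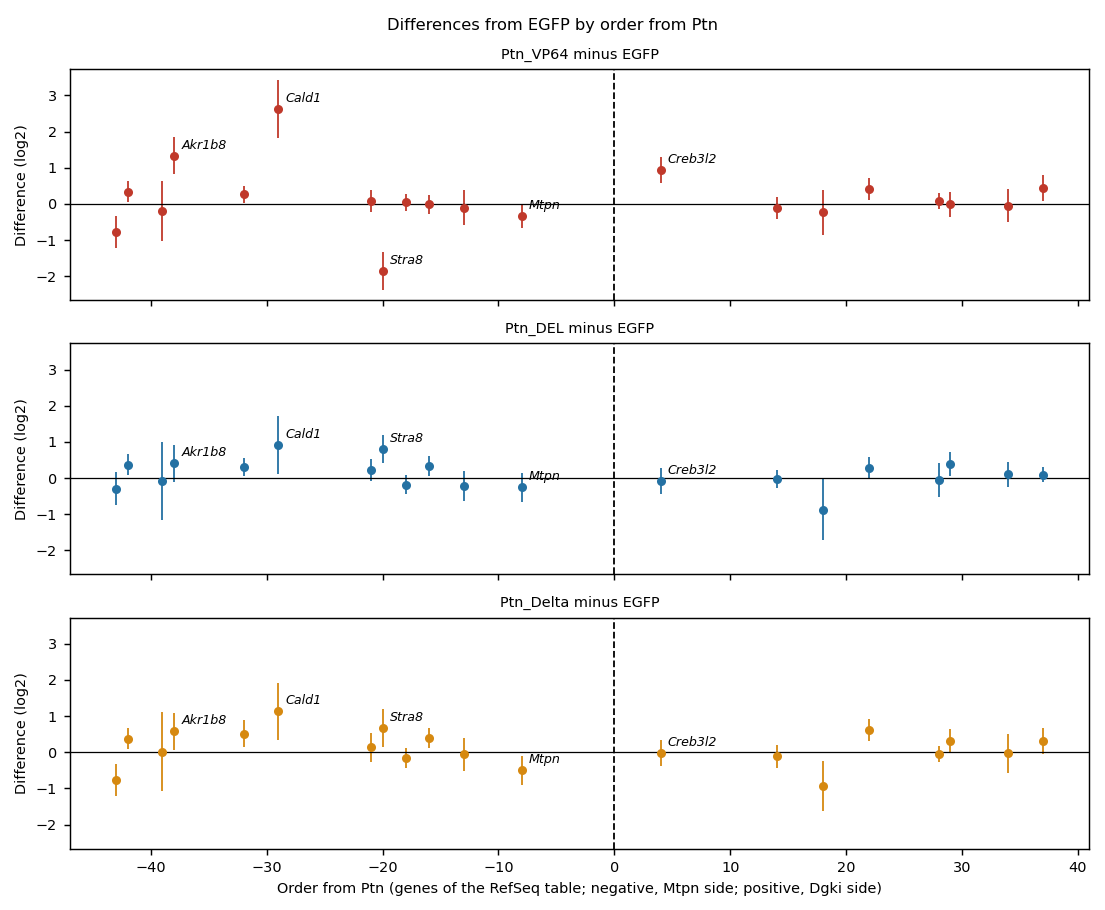
Difference from EGFP (vertical axis, log2; points are the fitted difference and bars its standard error) of each measured member against its order from Ptn in the RefSeq gene table (horizontal axis), for Ptn_VP64, Ptn_DEL and Ptn_Delta. Cald1 at 2.63 and Stra8 at -1.85 with Ptn_VP64 lie 29 and 20 genes from Ptn.

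Mtpn codes for myotrophin, which binds actin-capping protein. Its levels were 1.98 and 2.63 with EGFP (replicates 2 and 4), 1.84, 2.18 and 1.62 with Ptn_VP64 (replicates 1, 3 and 4), 1.90, 1.72 and 2.28 with Ptn_DEL (replicates 1, 3 and 4), and 2.05 and 1.56 with Ptn_Delta (replicates 1 and 4). All 4 groups overlapped. Mtpn differed from EGFP by -0.35 ± 0.32 with Ptn_VP64, -0.26 ± 0.40 with Ptn_DEL and -0.49 ± 0.40 with Ptn_Delta (limma, adjusted p = 0.957, 1.00 and 1). The sign of all 3 turned without patch correction (1.19, 1.69 and 1.54), with normexp background correction (0.25, 0.34 and 0.14) and in the deposited log2 values (1.02, 1.58 and 1.17), so no direction is given for Mtpn.

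Creb3l2 codes for a transcription factor anchored in the endoplasmic reticulum that drives secretory genes. Its levels were -2.63, -3.94 and -3.35 with EGFP (replicates 2, 3 and 4), -2.05, -2.37, -2.32 and -2.06 with Ptn_VP64, -3.47, -3.25, -2.84 and -3.29 with Ptn_DEL, and -3.12, -3.21 and -3.14 with Ptn_Delta (replicates 1, 2 and 4). Among the spots kept, the 4 Ptn_VP64 arrays were the highest of all groups, and the Ptn_DEL and Ptn_Delta arrays overlapped with EGFP. The spot of EGFP replicate 1, left out as a marked outlier, stood at -1.97, above all 4 Ptn_VP64 values. The signal was faint: it was well above background on 2 of the 4 Ptn_VP64 arrays, 1 of Ptn_DEL, 3 of Ptn_Delta and none of EGFP. The Ptn_VP64 mean over the EGFP floor gave a ratio of 1.6-fold. The floor is the lowest signal that could be measured on an array, or the spot's own level where that was higher. This sets no lower limit for Creb3l2, whose difference depended on the slide and the background correction. Its fitted difference was 0.94 ± 0.35 from EGFP, 1.01 ± 0.35 from Ptn_DEL and 0.95 ± 0.35 from Ptn_Delta (limma, adjusted p = 0.591, 1 and 1.00). Within slides, the Ptn_VP64 difference from EGFP was 0.42 on slide 1 and 1.46 on slide 2. With normexp background correction it was 0.03.

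On the Mtpn side, Slc13a4, a sodium-coupled sulphate transporter, was close to background, at -1.35 and -2.64 with EGFP (replicates 2 and 3), -1.70, -2.34, -1.82 and -2.51 with Ptn_VP64, -2.53, -1.90 and -2.48 with Ptn_DEL (replicates 1, 2 and 4), and -2.68 and -1.98 with Ptn_Delta (replicates 3 and 4). The groups overlapped. Nup205, a scaffold protein of the nuclear pore, was among the brightest members, at 4.65, 4.13 and 4.32 with EGFP (replicates 1, 2 and 4), 4.31 and 4.46 with Ptn_VP64 (replicates 3 and 4), 4.64, 4.79, 4.58 and 5.05 with Ptn_DEL, and 4.66, 4.78, 4.68 and 5.20 with Ptn_Delta. Every Ptn_Delta array stood above every EGFP array for Nup205, the nearest being 4.66 and 4.65. Its difference from EGFP was 0.39 ± 0.27 with Ptn_Delta and 0.33 ± 0.27 with Ptn_DEL, against -0.01 ± 0.25 with Ptn_VP64 (limma, adjusted p = 1, 1.00 and 1). These sizes depended on the processing: for Ptn_VP64 the difference was 1.43 without patch correction, 1.24 in the deposited log2 values and 0.36 with normexp, and for Ptn_Delta it was 2.01, 1.79 and 0.89. Cnot4, an E3 ubiquitin ligase tied to the CCR4-NOT deadenylase, stood at 0.72, 0.46 and 0.77 with EGFP (replicates 1, 3 and 4), 0.54, 0.95 and 0.81 with Ptn_VP64 (replicates 1, 3 and 4), 0.68, -0.32, 1.06 and 0.27 with Ptn_DEL, and 0.76 and 0.13 with Ptn_Delta (replicates 3 and 4). The groups overlapped here too. A second, fainter probe of Cnot4 differed from EGFP by 0.65 with Ptn_DEL and 0.47 with Ptn_Delta. The group means of the probe shown differed by -0.22 and -0.20. Wdr91, a WD-repeat protein of endosome maturation, stood at -0.80 and -0.26 with EGFP (replicates 2 and 3), -0.29, -0.14, -0.67 and -0.66 with Ptn_VP64, -0.18, -0.37 and -0.35 with Ptn_DEL (replicates 1, 2 and 4), and -0.24 and -0.55 with Ptn_Delta (replicates 3 and 4), with all groups overlapping.

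Stra8 is the gene, named for its response to retinoic acid, that gates entry into meiosis. Its levels were 2.34 and 1.60 with EGFP (replicates 3 and 4), -0.68, 0.82 and -0.46 with Ptn_VP64 (replicates 1, 2 and 3), 2.73, 2.71 and 3.23 with Ptn_DEL (replicates 1, 3 and 4), and 2.31 and 2.96 with Ptn_Delta (replicates 3 and 4). The 3 Ptn_VP64 arrays were below every array of the other groups, and the Ptn_DEL arrays were above both EGFP arrays. Stra8 differed by -1.85 ± 0.53 from EGFP, -3.04 ± 0.30 from Ptn_DEL and -2.90 ± 0.40 from Ptn_Delta (limma, adjusted p = 0.419, 0.676 and 0.893). With the arrays unaveraged, the adjusted p was 0.103, 0.0387 and 0.0943. On slide 2, where EGFP, Ptn_DEL and Ptn_Delta each had 2 values and Ptn_VP64 had 1, the differences of Ptn_VP64 from them were -2.43, -3.43 and -3.09. On slide 1, where only the Ptn_DEL comparison could be made, it was -2.66. The probe lay in dim patches on Ptn_Delta replicates 1 and 2, with local shifts of -3.85 and -3.71, so these were left out. Without patch correction the difference from Ptn_Delta was -0.45. In the log2 values the authors deposited it turned to 0.06.

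On the Dgki side, Trim24, a bromodomain cofactor of nuclear receptors and regulator of p53, stood at 4.27 and 4.61 with EGFP (replicates 3 and 4), 4.08 and 4.41 with Ptn_VP64 (replicates 1 and 3), 4.26, 4.56, 4.42 and 4.40 with Ptn_DEL, and 4.32 and 4.33 with Ptn_Delta (replicates 3 and 4). It had the smallest spread between arrays of any measured member, a residual SD of 0.162. Its fitted differences from EGFP were -0.11 ± 0.30, -0.03 ± 0.26 and -0.11 ± 0.32 with Ptn_VP64, Ptn_DEL and Ptn_Delta. On a second probe of Trim24 the differences of group means were -0.23, 0.15 and 0.14, of the other sign for Ptn_DEL and Ptn_Delta. Atp6v0a4, a subunit of the proton pump of acid-secreting cells, stood at -1.52, -2.45 and 0.03 with EGFP (replicates 2, 3 and 4), -1.72, -0.89, -1.10 and -1.14 with Ptn_VP64, -2.19 and -2.75 with Ptn_DEL (replicates 1 and 3), and -2.09, -2.91, -1.59 and -3.51 with Ptn_Delta. None of its EGFP spots was well above background, although 1 stood at 0.03. The lowest Ptn_VP64 value was above both Ptn_DEL values, and overlapped with EGFP and Ptn_Delta. D630045J12Rik stood at -2.39, -2.29, -2.31 and -2.39 with EGFP, -1.99, -1.76, -2.05 and -1.98 with Ptn_VP64, -1.65, -2.65, -1.69 and -2.25 with Ptn_DEL, and -1.64, -1.77 and -1.77 with Ptn_Delta (replicates 1, 3 and 4). Every Ptn_VP64 and Ptn_Delta array was above every EGFP array, where no spot was well above background. The ratio of the group means was 1.32-fold for Ptn_VP64 and 1.53-fold for Ptn_Delta, with an adjusted p of 0.902 and 1 in limma. It is no lower limit, since on the log2 scale the Ptn_VP64 difference of 0.40 was 0.25 with a patch window of 41 spots, 0.06 without patch correction and -0.03 with normexp, and that of Ptn_Delta turned from 0.62 to -0.24 with normexp. Ttc26, an intraflagellar transport protein of cilia, stood at -0.81, 0.14 and -0.33 with EGFP (replicates 2, 3 and 4), -0.31, -0.89 and -0.15 with Ptn_VP64 (replicates 1, 2 and 4), 0.14, -0.71, -0.40 and -0.10 with Ptn_DEL, and -0.07, -1.45 and -0.25 with Ptn_Delta (replicates 1, 2 and 3). Ubn2, a subunit of the HIRA histone chaperone complex, stood at 1.77 and 2.33 with EGFP (replicates 2 and 4), 1.95 and 2.24 with Ptn_VP64 (replicates 3 and 4), 2.26, 2.88, 2.24 and 2.39 with Ptn_DEL, and 2.29, 2.48 and 2.39 with Ptn_Delta (replicates 1, 2 and 4). Both Ptn_VP64 values of Ubn2 were below every Ptn_DEL and Ptn_Delta value, the nearest being 2.236 and 2.243, and overlapped with EGFP. On a second probe of Ubn2, Ptn_VP64 (-0.49 to 0.09) overlapped with Ptn_DEL (-0.34 to 0.14) and Ptn_Delta.

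Outside these 12 genes, 2 further members, Cald1 and Akr1b8, passed the unadjusted threshold with Ptn_VP64, and both lie far from Ptn in gene order. Cald1 codes for caldesmon, a protein of actin filaments. Its levels were -0.96, -1.14 and -1.06 with EGFP (replicates 1, 3 and 4), 2.26, 0.66, 2.58 and 0.80 with Ptn_VP64, 0.49, -0.66, 0.73 and -1.16 with Ptn_DEL, and -0.59, 0.93 and -0.98 with Ptn_Delta (replicates 2, 3 and 4). Every Ptn_VP64 array was above every EGFP array, and the lowest Ptn_VP64 values overlapped with the highest of Ptn_DEL and Ptn_Delta. Cald1 differed from EGFP by 2.63 ± 0.80 with Ptn_VP64 (limma, adjusted p = 0.454, and 0.0429 with the arrays unaveraged). The same difference was 2.42 on slide 1 and 2.79 on slide 2. A second probe of the gene gave a mean of 1.66 in Ptn_VP64 and -0.85 in EGFP, a difference of 2.51. Against EGFP, Cald1 stood 0.91 ± 0.80 with Ptn_DEL and 1.13 ± 0.80 with Ptn_Delta.

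Markers of ES cells and of other cell types were read on the same arrays. The summed level of the 12 ES cell markers, as signal over the 75th percentile, was 554 to 1020 in EGFP, 313 to 643 in Ptn_VP64, 501 to 591 in Ptn_DEL and 507 to 1020 in Ptn_Delta. Over the 9 of them measured in the fit, the median log2 level was 5.94 in EGFP, 4.99 in Ptn_VP64, 5.42 in Ptn_DEL and 5.12 in Ptn_Delta. The summed level of the 8 trophoblast markers, in the same unit, was 5.09 to 19.6 in EGFP, 28.6 to 156 in Ptn_VP64, 8.89 to 41.6 in Ptn_DEL and 9.17 to 50.8 in Ptn_Delta. Of these markers 6 of 8 were above background on 4 or more arrays. Elf5 was above on 0 and Hand1 on fewer than 4. A sum gives most weight to the brightest markers. The median log2 level of the 8 per array was -2.33 to -1.14 in EGFP and -1.13 to 1.52 in Ptn_VP64. It was -1.94 to -0.80 in Ptn_DEL and -1.93 to -0.97 in Ptn_Delta. The Ptn_VP64 sums lay above every EGFP sum for the trophoblast list. They overlapped with EGFP for the ES cell, fibroblast, primitive endoderm and neural lists. The 8 fibroblast markers summed to 1.12 to 4.04 in EGFP, 2.2 to 8.51 in Ptn_VP64, 1.31 to 2.05 in Ptn_DEL and 1.24 to 3.92 in Ptn_Delta, with 4 of 8 above background and Pdgfrb and Postn on 0 arrays. The 6 primitive endoderm markers summed to 0.982 to 2.67 in EGFP and 2.12 to 2.65 in Ptn_VP64. With Ptn_DEL they summed to 1.17 to 7.81, and with Ptn_Delta to 1.55 to 3.18. The 6 neural markers summed to 6.12 to 8.13 in EGFP and 5.11 to 7.3 in Ptn_VP64. With Ptn_DEL they summed to 6.47 to 13.6, and with Ptn_Delta to 6.36 to 12.3. The part of these lists in the levels of Cald1, Akr1b8, Creb3l2 and Stra8 was not tested.

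Akr1b8, an aldo-keto reductase that detoxifies carbonyls, was spotted 10 times on each array. Its levels were 1.96, 1.91, 2.05 and 2.71 with EGFP, 3.37, 3.15 and 3.71 with Ptn_VP64 (replicates 1, 3 and 4), 2.05, 2.99, 1.91 and 3.30 with Ptn_DEL, and 2.28, 3.13, 2.04 and 3.49 with Ptn_Delta. Every Ptn_VP64 array was above every EGFP array, and the 3 Ptn_VP64 values overlapped with those of Ptn_DEL and Ptn_Delta. The SD over the spots of an array had a median of 0.189. The difference from EGFP was 1.33 ± 0.51 with Ptn_VP64 (limma, adjusted p = 0.564), 0.41 ± 0.51 with Ptn_DEL and 0.58 ± 0.51 with Ptn_Delta. It was 1.44 on slide 1 and 1.05 on slide 2 with Ptn_VP64. Within the Ptn_DEL and Ptn_Delta arrays, Akr1b8 was lower in replicates 1 and 3 than in 2 and 4, while Cald1 was higher in replicates 1 and 3 wherever measured, in each TALE group.

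**Figure D3:**
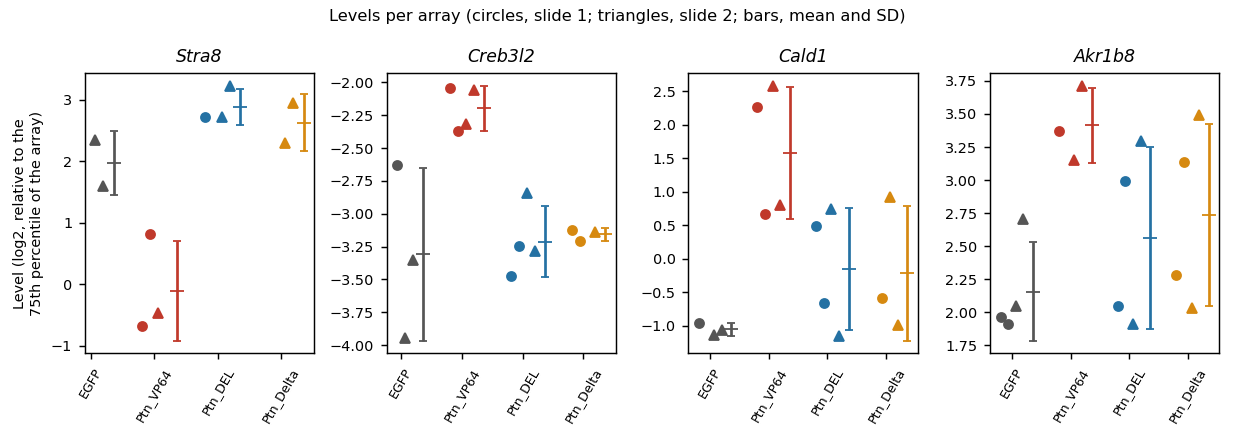
Levels (vertical axis, log2 relative to the 75th percentile of the array; each panel has its own scale) of Stra8, Creb3l2, Cald1 and Akr1b8 on every array left after patch correction, by construct, with mean and SD. The 3 Stra8 values with Ptn_VP64 lie below all others shown, and the 4 Creb3l2 values with Ptn_VP64 lie above all others shown. The Creb3l2 spot of EGFP replicate 1, marked as an outlier, is left out.

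The other measured members gave less. Lrguk, a gene of sperm tail assembly, was faint, with group means from -2.92 in Ptn_VP64 to -2.14 in EGFP. Slc35b4, a Golgi transporter of nucleotide sugars, had group means of 0.29 to 0.66. Bpgm, a red-cell enzyme that makes bisphosphoglycerate, had means of 0.57 to 0.98. Hipk2, a nuclear kinase of stress responses, had means of -1.87 to -1.47, and its other probe had the opposite sign for Ptn_VP64 minus EGFP (-0.37 against 0.39). Akr1b3, an aldose reductase, stood between 4.91 and 5.92 outside Ptn_VP64. It stood at 6.91, 4.99 and 2.17 with Ptn_VP64 (replicates 1, 3 and 4), and the 1.17 residual SD of the gene was the largest among members. The other Akr1b3 probe had no EGFP spot left, and it was saturated on Ptn_VP64 replicate 1 and on Ptn_Delta replicates 1 and 2, so it sets no comparison. Luc7l2, a splicing factor, ranged from 4.04 to 7.02, and its 2 probes differed in sign for Ptn_VP64 minus EGFP (-0.91 and 0.83).

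**Figure D4:**
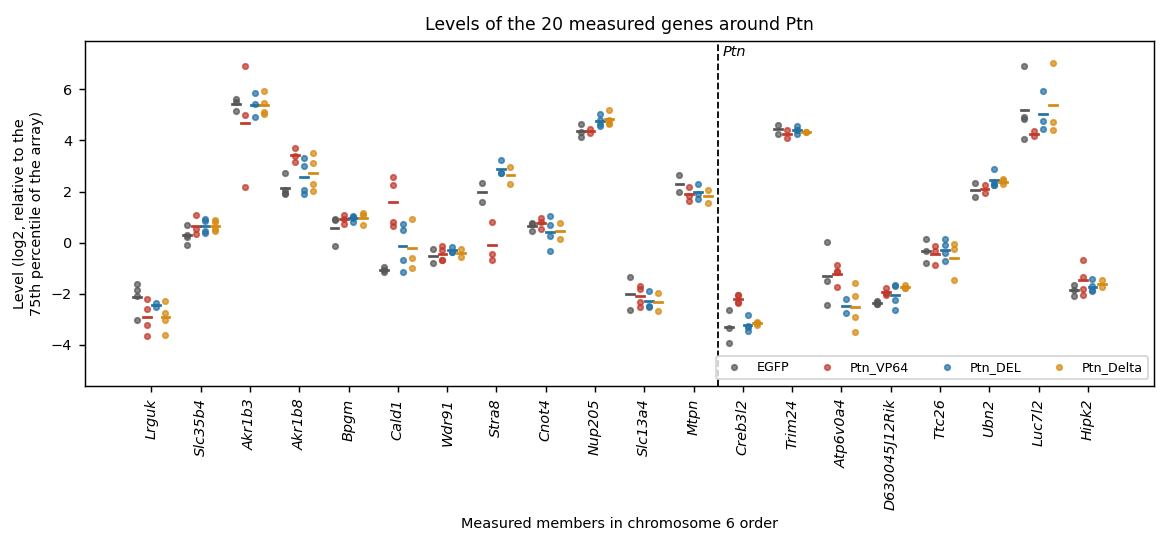
Levels of the 20 measured members on every array (vertical axis, log2 relative to the 75th percentile of the array; points are arrays and short lines group means), in chromosome order with a dashed line at Ptn. The groups lie on each other for Trim24 and Mtpn. For Stra8 the Ptn_VP64 arrays lie apart from the other groups, with a mean of -0.11 against 1.97 in EGFP.

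Against the other TALE constructs, Ptn_VP64 gave 0 of 20 members at the adjusted threshold in either comparison (0.00894% of all genes for each). At the unadjusted threshold, Creb3l2 was higher and Stra8 lower against both, so 2 of 20 members passed against Ptn_DEL (4% of all genes) and 2 of 20 against Ptn_Delta (4.77%). With the arrays unaveraged, Stra8 passed adjustment against Ptn_DEL, 1 of 20 (0.841%), and 0 of 20 passed against Ptn_Delta (0.707%). The median difference of the members was -0.06 from Ptn_DEL (all genes -0.01) and -0.01 from Ptn_Delta (all genes -0.0029). Between Ptn_DEL and Ptn_Delta, 0 of 20 members passed at the adjusted (0%), unadjusted (0.0984%) or unaveraged (0%) threshold. The median difference was 0.03, and no member differed by over 1 log2 unit, its range being -0.34 to 0.48. No arrays of these groups were apart for any member, while 4.71% of all genes had arrays that did not overlap.

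Groups whose arrays did not overlap numbered 5 members of 20 for Ptn_VP64 against EGFP, 4 above (Akr1b8, Cald1, Creb3l2, D630045J12Rik) and 1 below (Stra8), where 22.9% of all genes did not overlap. There was 1 for Ptn_DEL against EGFP (Stra8, above; 11.8% of all genes) and 2 for Ptn_Delta (D630045J12Rik and Nup205, above; 13.7%). Ptn_VP64 and Ptn_DEL did not overlap for 6 members (18.4%), and Ptn_VP64 and Ptn_Delta for 5 (23%). Few arrays per group are left for most of these, and the shares among all genes are given for that reason. Creb3l2 counts as above EGFP only with the marked spot of EGFP replicate 1 left out.

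Beyond the members, the 60 RefSeq genes on each side of Ptn hold 86 other genes, 18 of which had a probe and 8 of which were measured. None of the 8 passed at an adjusted p under 0.05 in any of the 6 comparisons with limma. At an unadjusted p under 0.05, 1 passed for Ptn_VP64 against EGFP (8.18% of all genes), 1 for Ptn_DEL against EGFP (2.5%) and 0 in the other 4. Their median difference was -0.23 for Ptn_VP64 minus EGFP, 0.28 for Ptn_DEL and 0.29 for Ptn_Delta. The ranges were wide, at -1.18 to 0.43, -2.10 to 4.22 and -1.21 to 1.67. Differences over 1 log2 unit were found in 2, 3 and 3 of the 8, against 12.7, 6.82 and 7.14% of all genes. The 4.22, a difference of group means, was the largest rise of any gene tested for Ptn_DEL minus EGFP. It did not pass at the adjusted threshold, and its dependence on the processing was not tested.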

How the data were processed

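RNA of 4 groups was measured on 16 single-colour arrays. The deposited spot signals are linear intensity after background subtraction and spatial detrending, with arrays not yet put on 1 scale. Per the file headers they came from Feature Extraction 11.5.1.1 of Agilent, with an array design on mm9. The log2 values the authors deposited hold the same sorted values in all 16 columns (largest difference 0), as quantile normalization leaves them, and served only as an alternative. Probes were named by accession through a RefSeq table (GRCm38.p6), used only for names, gene order and promoters.

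Levels are log2 signal minus log2 of the array's 75th percentile, minus a local shift (median in 21 by 21 spots). Marked spots and spots over 1 log2 unit off were left out. Probes well above background on 4 arrays, with 2 arrays in every group, were kept, the brightest per gene. Arrays were averaged to 2 samples a group in each of 3 possible pairings, fitted with limma 3.58.1 (slide as a term in 1 pairing), and the largest p kept and adjusted by Benjamini-Hochberg over 11180 genes. As nothing says which arrays came from separate cultures, p-values measure the spread between these samples, which may be technical. The fit was also run on simulated data with a set pairing and no patches, so its power on these arrays was not measured. Members with levels given are the 6 nearest measured on each side, plus those with an unadjusted p under 0.05. Members and lists were chosen with earlier results of these data known. Alternatives changed the background, patch correction, filters, probes, replicates and slides.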

Additional observations from a re-analysis of the deposited data

How the results depend on the processing

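Across 34 alternatives of each comparison (18 settings and 16 leave-one-array-out fits), the count of members called stayed at 0 except with the arrays unaveraged, which counts technical repeats as replicates. For Ptn_VP64 against EGFP it was 1 with the slide as a term (Cald1), 2 without (Cald1, Creb3l2) and 3 with the replicate block (Akr1b8, Cald1, Stra8). For Ptn_VP64 against Ptn_DEL it was 1 and 1 (Stra8) and 2 with the block (Stra8, and Cald1 at 1.73 ± 0.32, limma adjusted p = 0.0250), and for Ptn_VP64 against Ptn_Delta 1 without the slide and 1 with the block (Stra8). Same-numbered arrays of different groups had a median correlation of 0.232 (-0.0442 to 0.578 over 24 pairs, 19 over 0.1), and 15 of 16 arrays correlated best with their own number, a hint from the data and not from the design. The median of the members moved by more than its spread as follows. For Ptn_VP64 minus EGFP it was 0.55 in the deposited log2 values, 0.28 with quantile normalization, -0.12 with no filter on dim probes and 0.50 on slide 1 alone. For Ptn_DEL minus EGFP it was 0.39 without patch correction, -0.020 with normexp, 0.56 in the deposited values, -0.021 with no filter and 0.33 on slide 1, and leaving out single arrays gave 0.11 to 0.27, the highest without EGFP replicate 3. For Ptn_Delta minus EGFP it was 0.44 in the deposited values and -0.047 with no filter. For Ptn_VP64 minus Ptn_DEL it was -0.27 without patch correction, 0.12 with normexp, 0.35 with quantile normalization and 0.66 on slide 1. For Ptn_VP64 minus Ptn_Delta it was 0.54 on slide 1. For Ptn_DEL minus Ptn_Delta it was 0.086 without patch correction, -0.036 with a window of 41 spots, -0.055 with a limit of 0.5, 0.24 in the deposited values, -0.12 with quantile normalization and 0.13 on slide 1. The cause of these moves was not tested.

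The differences of Stra8, Cald1, Akr1b8 and Creb3l2 with Ptn_VP64 kept their sign under every alternative run with 1 exception, Stra8 against Ptn_Delta, which was 0.057 in the deposited log2 values. Those values keep the 2 Ptn_Delta arrays whose probe lies in a dim patch. Leaving out single arrays gave -2.43 to -1.48 for Stra8 minus EGFP, 2.55 to 2.71 for Cald1, 1.11 to 1.53 for Akr1b8 and 0.79 to 1.51 for Creb3l2. The other alternatives gave -2.65 to -0.95, 1.87 to 3.08, 0.88 to 1.44 and 0.03 to 1.55, in the same order. Of the 14 members given array by array, the sign for Ptn_VP64 minus EGFP turned in 3 without patch correction (Cnot4, Slc13a4, Mtpn), 5 with normexp (Wdr91, Mtpn, Trim24, Atp6v0a4, D630045J12Rik), 3 in the deposited values (Cnot4, Slc13a4, Mtpn) and 2 with a window of 41 spots (Slc13a4, Ubn2). For Ptn_DEL minus EGFP the sign turned in 2, 6, 2 and 1 members, in the same order of settings. For Ptn_Delta minus EGFP it turned in 6, 5, 5 and 1, among them Akr1b8 and Stra8 in the deposited values. Signal close to background limits Creb3l2, Slc13a4, Lrguk and D630045J12Rik.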
